A study of Danio rerio with 17 samples.

Results

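The genes described here mostly encode enzymes of amino acid and one-carbon catabolism in the zebrafish liver. They were chosen by gene symbol, as the genes whose name begins with the symbol of an aminotransferase, a glutamate, aromatic, branched-chain, methionine, folate, glycine or urea cycle enzyme, or ornithine decarboxylase. The array held 64 probe sets for 52 such genes, of 8793 gene symbols in all, and the brightest probe set over all fish stood for each gene. Of the 52, 49 are enzymes of these pathways or relatives of such enzymes, as ahcyl1, ahcyl2b and hpdl are, and 3 matched by letters alone. Cth1 in zebrafish is a zinc finger gene of the maternal oocyte, not the cystathionine lyase cth, and cthrc1a and cthrc1b encode secreted collagen triple helix repeat proteins. Lysine breakdown (aass) had no member.

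Total RNA of the liver was measured on Affymetrix arrays in 17 zebrafish of both sexes, fed a diet with 25% or 0% carbohydrate, and each fish had its own array. Females fed 25% numbered 5 (fish 3, 20, 24, 49 and 51) and females fed 0% also 5 (fish 7, 8, 10, 25 and 27). Males fed 25% numbered 3 (fish 52, 53 and 54) and males fed 0% numbered 4 (fish 11, 26, 30 and 66). Strain, age and time on the diet are not given in the sources used here, and the series text states the 2 male group sizes the other way round from the labels. Values are deposited log2 signals, given below in this order of fish, and differences are from a limma model of all 17 arrays with p values adjusted over 15502 probe sets and a threshold of 0.05.

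Amino acid catabolism is among the main tasks of the fish liver, since fish take much of their energy from protein. Aminotransferases pass the amino group to glutamate, glutamate dehydrogenase releases it as ammonia, and the carbon skeletons enter the citric acid cycle or gluconeogenesis. Methionine is activated to S-adenosylmethionine, used for methylation, and either rebuilt with betaine or folate carbon or sent through cystathionine to cysteine. Serine and glycine feed single carbons into the folate cycle through the hydroxymethyltransferase and the glycine cleavage system.

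The arrays carried a strong hepatocyte signal, with the mean of 13 hepatocyte markers between 11.89 and 12.51 on every array and none of the 13 below an array's median. Array medians lay between 3.52 and 3.61. The table holds no detection calls. Of the 52 members, 41 lay above the array's median in all 17 fish. The 5 members ass1, cthrc1a, got1l1, gpt2 and hpdl lay below it in all 17, and ahcyl1, asl, bcat1, cth1, mthfd2 and odc1 in some, and differences among such low signals are imprecise in size. The mean of 14 ovary markers was 5.64 to 6.55 in females on 25% and 3.59 to 4.88 in females on 0%, against 3.25 to 3.57 in males on 25% and 3.29 to 3.63 in males on 0%. The mean of 16 intestinal markers was 8.49 to 9.35 in male fish 11, 52 and 66 and 5.36 to 5.50 in the other 4 males, against 5.13 to 6.17 in the 10 females. At most 1 of these 16 lay below the array's median in those 3 males, against 6 or 7 in the other males and 3 to 7 in females. The mean of 13 exocrine pancreas markers ranged from 6.40 in fish 54 to 12.06 in fish 11, and was 11.73 in fish 66 and 10.20 in fish 52. Fish 11, 52 and 66 were thus also the highest males for this list, the other males reaching 8.90 at most. In tissue RNA, fewer cells of a type and less RNA per cell cannot be told apart.

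In the main fit female livers had lower signal for some enzymes that handle amino groups, sulphur amino acids and glycine. Not all of these calls held under other settings. Averaged over the diets, 10 of the 52 members fell in females and 3 rose (19.2% and 5.77% of members). Over all probe sets 5.57% were lower and 8.02% higher. Of the members 46 had above-median mean signal, so all probe sets are not matched to them in brightness. Among probe sets of above-median mean signal, larger shares than these passed in both directions, as given in the closing section. The 5.57% and 8.02% are therefore low as a comparison for members this bright. The 10 were got1, glud1a and glud1b of transamination and glutamate, bhmt, cbsb, cth and the relative ahcyl2b of the methionine group, and agxta, gcsha and mthfd2 of the glycine and folate group. The 3 that rose were bcat1 and bckdk of branched-chain metabolism, and cth1. The calls of got1, bhmt, cbsb and cth, and of the 3 that rose, held under every alternative run. Agxta, gcsha, glud1a, glud1b and ahcyl2b lost theirs under quantile normalization, and mthfd2 in 3 of 17 fits that left out 1 fish. No lower call of the glycine and folate group thus held throughout. The median over the 52 members was -0.19 and over all probe sets 0.01, and 34 of the 52 differences were below 0. No member separated all 10 females from all 7 males. Of all probe sets 1.34% did with females higher and 0.297% with females lower, shares at which few or none of 52 would. The hepatocyte markers also lay lower in females: 5 of 13 fell and none rose, with a median of -0.17. Whether this had a part in the lower signal of the enzymes was not tested.

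**Figure D1:**
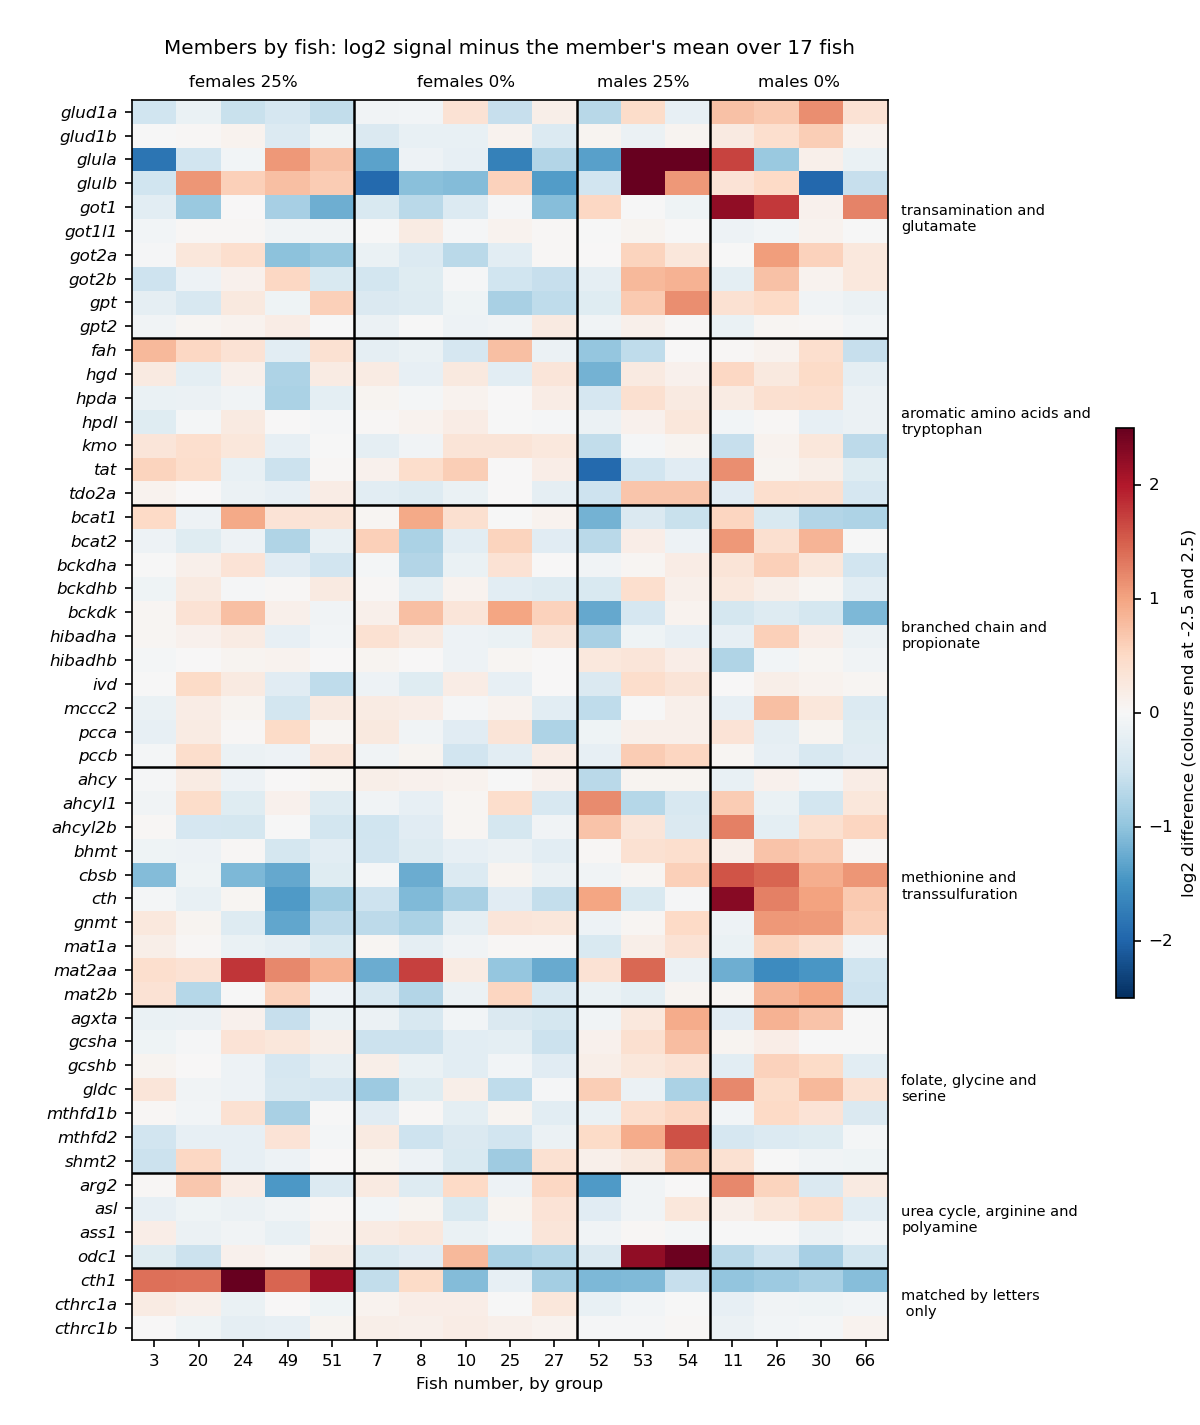
Log2 signal of the 52 members (rows, in role groups) in each of the 17 fish (columns, in the 4 groups), as the difference from the member's own mean over all fish, with red above and blue below it. Reds gather in the columns of males on 0% for got1, cbsb and cth, where males on 25% are mixed, and in the columns of females on 25% for cth1.

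Transamination and glutamate genes had the lowest median of the role groups at -0.56, with 3 of 10 lower in females and none higher. Got1 encodes the cytosolic aspartate aminotransferase. Its signal was 5.69, 5.04, 5.97, 5.13 and 4.75 in females on 25% and 5.57, 5.28, 5.61, 5.93 and 4.89 in females on 0%, against 6.48, 5.95 and 5.86 in males on 25% and 8.18, 7.74, 6.06 and 7.20 in males on 0%. Males on 0% stood highest, with only fish 30 near the others, and the 5 females on 0% lay below all 4 males on 0%. On average got1 differed by -1.31 ± 0.27, a 2.48-fold lower signal in females (adjusted p = 0.00458).

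Glutamate dehydrogenase, which frees ammonia from glutamate in mitochondria, has the gene copies glud1a and glud1b. Glud1b was 11.002, 11.04, 11.10, 10.67 and 10.91 in females on 25% and 10.66, 10.84, 10.82, 11.10 and 10.68 in females on 0%, against 11.08, 10.87 and 11.09 in males on 25% and 11.25, 11.44, 11.63 and 11.10 in males on 0%. The 5 females on 0% lay below the 4 males on 0%, though by under 0.01 at the nearest pair, and the groups on 25% overlapped. The sex difference was -0.30 ± 0.09 (adjusted p = 0.0342) averaged over diets and -0.54 ± 0.12 (adjusted p = 0.0243) at 0%. Glud1a was 5.81, 6.15, 5.75, 5.89 and 5.70 in females on 25% and 6.23, 6.25, 6.68, 5.73 and 6.46 in females on 0%, against 5.63, 6.77 and 6.11 in males on 25% and 7.04, 6.96, 7.47 and 6.68 in males on 0%. Its average difference was -0.54 ± 0.16 (adjusted p = 0.041), and males on 0% were again the highest group. Both glud1a and glud1b lost the average call under quantile normalization, and glud1b also with trend and robust settings. The 2 calls were lost in 12 and 8 of 17 fits that each left out 1 fish. The glud1b call at 0% was lost in 5 of those 17 and in 2 of 8 other settings.

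The mitochondrial aspartate aminotransferase genes got2a and got2b and the alanine aminotransferase gene gpt had differences of -0.65 ± 0.22, -0.57 ± 0.19 and -0.54 ± 0.20 and did not pass (adjusted p = 0.0604, 0.0563 and 0.0819). Without male fish 11, 52 and 66 all 3 fell, as given below. A second gpt probe set, of mean signal 6.66 against 6.90, gave -0.26 with all fish (adjusted p = 0.468). The glutamine synthetase genes glula and glulb, which fix ammonia into glutamine, had wide spreads. Glula was 3.86, 5.21, 5.62, 6.77 and 6.42 in females on 25% and 4.34, 5.55, 5.48, 4.002 and 4.96 in females on 0%, against 4.33, 8.42 and 8.22 in males on 25% and 7.37, 4.75, 5.80 and 5.51 in males on 0%. Fish 53 and 54 were the highest of all 17 for glula at 8.42 and 8.22, while fish 52 of the same group stood at 4.33. The glula sex difference of -1.20 had a 95% interval of -2.46 to 0.05 and did not pass (adjusted p = 0.19). Glulb differed by -0.68 ± 0.51 with a 95% interval of -1.77 to 0.42.

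Methionine and transsulfuration genes had a median of -0.39, with 4 of 10 lower in females and none higher. Cbsb encodes a cystathionine beta-synthase, which joins homocysteine to serine. Its signal was 5.07, 6.05, 5.03, 4.87 and 5.86 in females on 25% and 6.10, 4.92, 5.82, 6.23 and 6.01 in females on 0%, against 6.07, 6.21 and 6.76 in males on 25% and 7.73, 7.61, 7.06 and 7.27 in males on 0%. Females lay below males within each diet without overlap, though at 25% female fish 20 and male fish 52 stood at 6.05 and 6.07. Males on 0% were the highest group. Averaged over diets the difference was -1.29 ± 0.21, 2.44-fold lower in females (adjusted p = 0.00103). At 25% it was -0.97 and did not pass (adjusted p = 0.103). A second cbsb probe set lay below the array's median on all 17 arrays and showed a difference of -0.13 (adjusted p = 0.27).

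Cth encodes cystathionine gamma-lyase, the next step, which releases cysteine. Its signal was 5.75, 5.61, 5.85, 4.39 and 4.92 in females on 25% and 5.28, 4.69, 4.99, 5.51 and 5.21 in females on 0%, against 6.78, 5.42 and 5.77 in males on 25% and 8.07, 7.05, 6.80 and 6.44 in males on 0%. Fish 11 was highest, females on 0% did not overlap males on 0%, and on 25% fish 53 and 54 lay within the female range. The difference was -1.32 ± 0.27 averaged over diets, 2.5-fold lower in females (adjusted p = 0.00455). At 0% it was -1.96 ± 0.36 (adjusted p = 0.00897), a 3.88-fold lower signal.

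Bhmt, which uses betaine to turn homocysteine back into methionine, was among the brightest signals of the liver. It read 12.57, 12.54, 12.70, 12.24 and 12.41 in females on 25% and 12.20, 12.36, 12.48, 12.52 and 12.41 in females on 0%, against 12.70, 13.07 and 13.11 in males on 25% and 12.81, 13.40, 13.31 and 12.72 in males on 0%. The spread within groups was small, and the highest female, fish 24, lay level with the lowest male, fish 52. Bhmt was lower in females, with a difference of -0.57 ± 0.11 (adjusted p = 0.0026), and a second probe set gave -0.49 (adjusted p = 0.0447). Ahcyl2b, a relative of S-adenosylhomocysteine hydrolase, was 4.77, 4.31, 4.29, 4.73 and 4.28 in females on 25% and 4.23, 4.45, 4.78, 4.29 and 4.64 in females on 0%, against 5.44, 5.03 and 4.38 in males on 25% and 5.997, 4.49, 5.14 and 5.27 in males on 0%. Fish 11, 52 and 66, the males with high intestinal markers, held the 3 highest ahcyl2b values. The difference of -0.61 ± 0.19 (adjusted p = 0.0463) became -0.28 ± 0.16 without them (adjusted p = 0.334), and the gene's other probe set gave -0.14 (adjusted p = 0.614).

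The other 6 genes of this group did not pass. Ahcy, the hydrolase itself, differed by 0.14 ± 0.10, and mat1a, the liver form of methionine adenosyltransferase, by -0.19 ± 0.12. Gnmt, which consumes S-adenosylmethionine to methylate glycine, differed by -0.70 ± 0.25 (adjusted p = 0.0763). Mat2aa, the adenosyltransferase form known in mammals from tissues outside the liver, differed by 0.62 ± 0.40 with a 95% interval of -0.23 to 1.48. Ahcyl1 and the regulatory subunit gene mat2b stood at -0.08 and -0.22.

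Folate, glycine and serine genes had 3 of 7 lower in females, none higher, a median of -0.39 and no difference above 0. Agxta encodes an alanine-glyoxylate aminotransferase, which clears glyoxylate to glycine. Its signal was 9.19, 9.22, 9.46, 8.78 and 9.20 in females on 25% and 9.22, 8.95, 9.29, 8.99 and 8.92 in females on 0%, against 9.27, 9.63 and 10.29 in males on 25% and 9.07, 10.22, 10.07 and 9.35 in males on 0%. The lowest males, fish 11, 52 and 66, lay within the female range and the other 4 males above all 10 females. The difference was -0.58 ± 0.17 (adjusted p = 0.0377) with all fish and -0.93 ± 0.13 without those 3 males (adjusted p = 0.00144), and the call with all fish was lost in 12 of 17 fits that left out 1 fish.

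Gcsha, a lipoate-carrying H protein gene of the glycine cleavage system, was 6.36, 6.44, 6.81, 6.76 and 6.61 in females on 25% and 5.94, 5.93, 6.21, 6.22 and 5.93 in females on 0%, against 6.57, 6.88 and 7.23 in males on 25% and 6.55, 6.64, 6.46 and 6.47 in males on 0%. Females on 0% were lowest, below every other fish. The sex difference was -0.39 ± 0.09 (adjusted p = 0.0132), and -0.24 under quantile normalization, where it did not pass (adjusted p = 0.0919). The other H protein gene, gcshb, differed by -0.33 ± 0.13 without passing (adjusted p = 0.0915). Gldc encodes the decarboxylase of the same system. It was 7.70, 7.30, 7.26, 6.99 and 6.98 in females on 25% and 6.48, 7.10, 7.53, 6.76 and 7.36 in females on 0%, against 8.01, 7.24 and 6.60 in males on 25% and 8.59, 7.84, 8.20 and 7.77 in males on 0%. Females on 0% lay below males on 0%, by -1.05 ± 0.28 (adjusted p = 0.0491), while the average sex difference of -0.55 ± 0.20 did not pass (adjusted p = 0.0884). The gldc call at 0% was lost in 14 of 17 fits that left out 1 fish and in 5 of 8 other settings.

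Mthfd2, the mitochondrial folate dehydrogenase and cyclohydrolase, was 3.03, 3.28, 3.29, 3.83 and 3.45 in females on 25% and 3.71, 2.97, 3.14, 3.01 and 3.36 in females on 0%, against 3.98, 4.42 and 5.08 in males on 25% and 3.07, 3.16, 3.20 and 3.44 in males on 0%. All 3 males on 25% lay above the other 14 fish, of which 12 were below their array's median. Mthfd2 was lower in females at 25%, by -1.12 ± 0.23 (adjusted p = 0.00769), and differed by 0.02 ± 0.21 at 0% (adjusted p = 0.971). Averaged over diets the difference was -0.55 ± 0.15 (adjusted p = 0.0287), a call lost without female fish 8, male fish 54 or male fish 66. The cytosolic folate enzyme gene mthfd1b and the mitochondrial hydroxymethyltransferase gene shmt2 differed by -0.29 ± 0.16 and -0.34 ± 0.18 and did not pass.

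Branched-chain and propionate genes had 2 of 11 higher in females, none lower and a median of -0.02. Bckdk encodes the kinase that switches off the branched-chain ketoacid dehydrogenase by phosphorylation. Its signal was 7.53, 7.84, 8.22, 7.60 and 7.39 in females on 25% and 7.62, 8.24, 7.79, 8.46 and 8.05 in females on 0%, against 6.21, 7.06 and 7.57 in males on 25% and 7.03, 7.16, 7.05 and 6.35 in males on 0%. Of the 7 males only fish 54 reached the female range. Bckdk rose by 0.95 ± 0.19 in females, 1.93-fold (adjusted p = 0.00442).

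Bcat1, the cytosolic branched-chain aminotransferase, was 4.47, 3.84, 4.91, 4.30 and 4.29 in females on 25% and 4.01, 4.90, 4.36, 3.96 and 4.06 in females on 0%, against 2.79, 3.60 and 3.40 in males on 25% and 4.49, 3.57, 3.22 and 3.19 in males on 0%. Male fish 11 stood at 4.49 within the female range, and 4 of 7 males were below the array's median. The difference was 0.87 ± 0.21, 1.83-fold higher in females (adjusted p = 0.0134). The mitochondrial form bcat2 differed by -0.35 ± 0.21. The dehydrogenase subunit genes bckdha and bckdhb differed by -0.20 ± 0.17 and -0.09 ± 0.11, so the subunits did not pass where their kinase gene did. For bckdhb the 95% interval was -0.33 to 0.15. Ivd, mccc2, hibadha, hibadhb, pcca and pccb, which carry leucine, valine and propionate carbon onward, differed by between -0.17 (ivd) and 0.21 (hibadha), and none passed. Other hibadhb probe sets gave -0.34 and -0.11 (adjusted p = 0.141 and 0.61), against 0.006 for the one used.

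Genes for the breakdown of tyrosine and tryptophan, with the relative hpdl, gave no call for sex, with 0 of 7 past the threshold and a median of 0.02. Tat, the tyrosine aminotransferase, was 10.29, 10.18, 9.54, 9.21 and 9.76 in females on 25% and 9.85, 10.17, 10.36, 9.74 and 9.91 in females on 0%, against 7.80, 9.25 and 9.45 in males on 25% and 10.90, 9.80, 9.88 and 9.43 in males on 0%. Fish 52 was lowest and fish 11 highest. The tat sex difference was 0.49 ± 0.25 with a 95% interval of -0.05 to 1.02. Hpda and hgd, the next enzymes in tyrosine breakdown, differed by -0.26 ± 0.13 and -0.00 ± 0.21, and fah, the last, by 0.43 ± 0.20. Tdo2a and kmo, which open tryptophan and feed the kynurenine route, differed by -0.27 ± 0.17 and 0.34 ± 0.16.

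Of the urea cycle, arginine and polyamine group, 0 of 4 passed for sex. Ass1 and asl, which build and split argininosuccinate, differed by 0.09 ± 0.07 and -0.11 ± 0.11, and ass1 lay below the array's median in all 17 fish. Arg2, a mitochondrial arginase, ranged over 7.16 to 9.28 in females and 7.19 to 9.80 in males and differed by 0.03 ± 0.30. Odc1, ornithine decarboxylase, the first step of polyamine synthesis, is given with the diet differences.

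**Figure D2:**
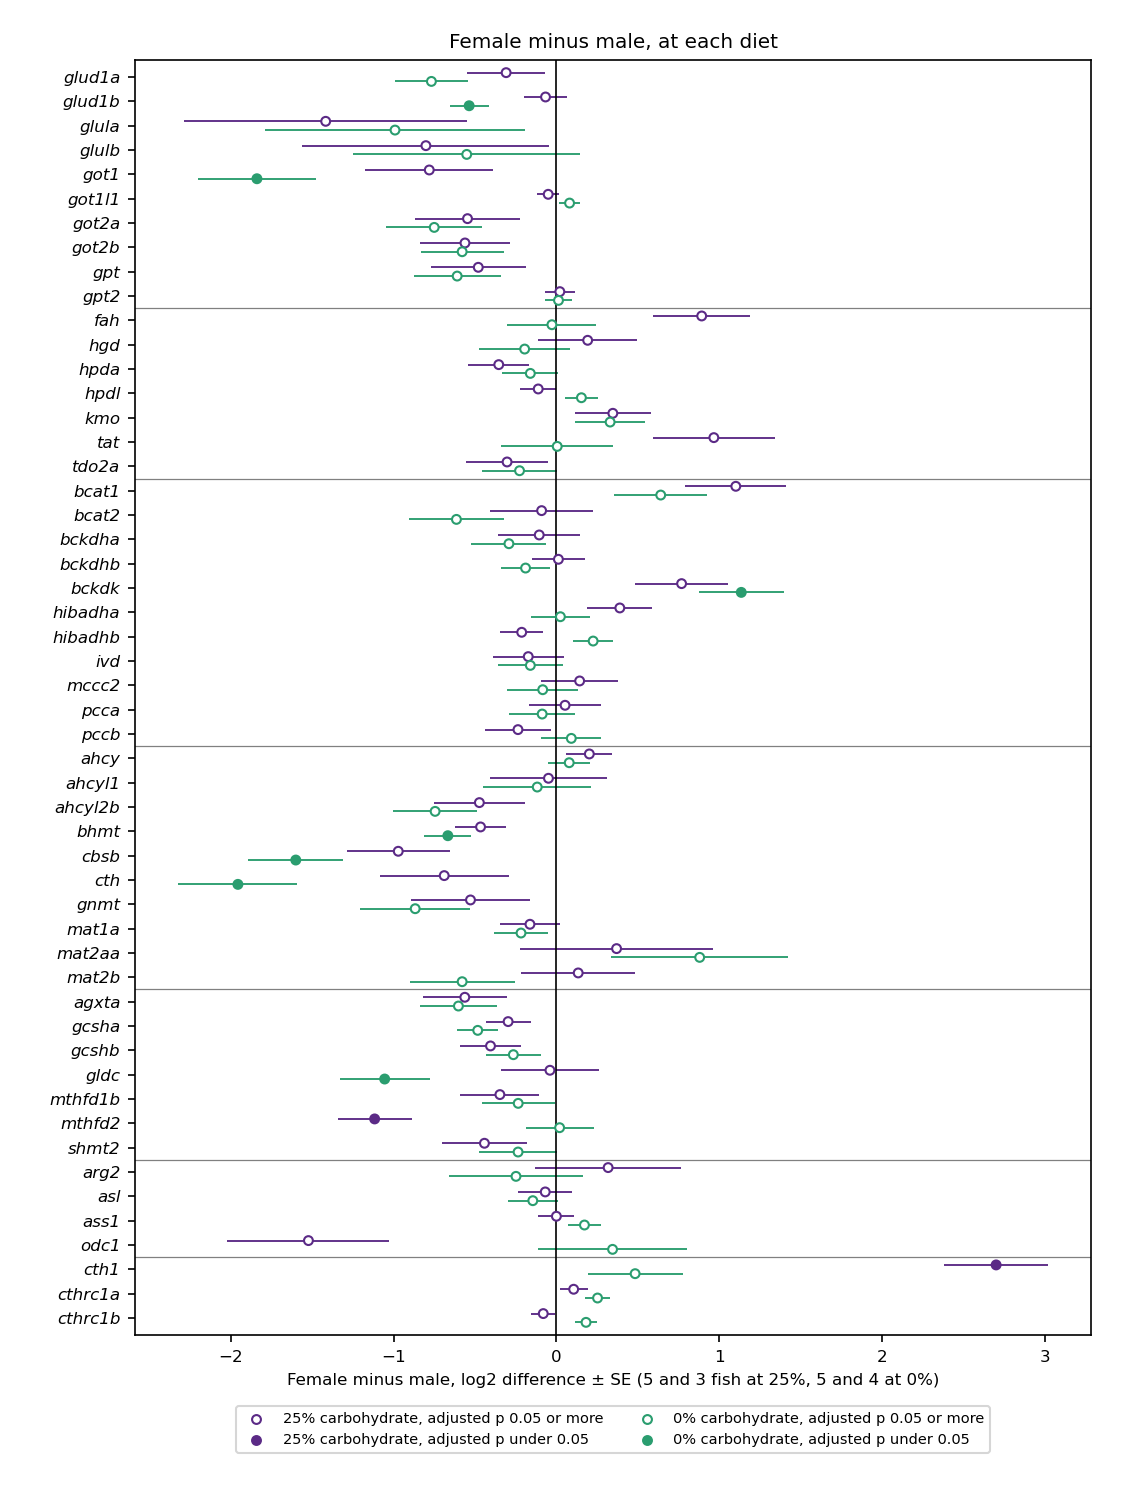
Female minus male log2 difference with its standard error for each of the 52 members at 25% and at 0% carbohydrate, where filled points have an adjusted p under 0.05. At 0% got1, cbsb, cth, bhmt, glud1b and gldc lie left of 0 as filled points and bckdk right of it, and at 25% mthfd2 and cth1 are filled.

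Split by diet, the lower female signal had more calls at 0%. At 25% 1 member fell and 1 rose, mthfd2 and cth1, against 1.36% and 3.55% of all probe sets. At 0% 6 members fell (bhmt, cbsb, cth, gldc, glud1b and got1) and bckdk rose, against 1.06% lower and 2.27% higher over all probe sets. Groups on 25% did not overlap for 2 members higher in females (bcat1 and cth1) and 4 lower (cbsb, gcshb, hibadhb and mthfd2), against 6.95% and 4.5% of all probe sets. Groups on 0% did not overlap for 3 members higher in females (bckdk, cthrc1a and cthrc1b) and 8 lower (bhmt, cbsb, cth, gcsha, gldc, glud1a, glud1b and got1), against 5.64% and 2.84%. The member medians were -0.11 at 25% and -0.19 at 0%. The got1 difference was -0.78 ± 0.39 at 25% and -1.84 ± 0.36 at 0%, and that of cth -0.69 ± 0.40 and -1.96 ± 0.36. The interaction, which tests whether these differ, passed for none of the 49 enzymes and relatives. Its lowest adjusted p among them was 0.173, for mthfd2, with adjusted p = 0.888 for got1 and 0.736 for cth. The number of unadjusted p values under 0.05 among the 49 was 4 with a positive and 3 with a negative interaction (8.16% and 6.12%), against 3.5% and 2.49% of all probe sets. The count of 7 calls at 0% became 4 when male fish 30, female fish 7 or female fish 27 was left out, and 3 when female fish 8 was. Bhmt lost its call at 0% in 4 of 17 fits that left out 1 fish. In a fit of only the groups compared, neither bhmt nor got1 passed at 0%. At 25% the count of 2 became 4 without male fish 52.

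The sex comparison was repeated without male fish 11, 52 and 66, whose intestinal markers were high. The same fish were the highest males for the exocrine pancreas markers, so leaving them out does not single out intestinal signal. With the other 4 males, 18 of 52 members fell in females and 3 rose on average over diets, against 5.24% lower and 4.13% higher over all probe sets. Of the 10 lower members, 9 were kept, ahcyl2b was lost and 9 were added. Of those kept, got1 and cth differed less than with all fish, by -1.02 ± 0.29 (adjusted p = 0.0495) and -1.04 ± 0.24 (adjusted p = 0.0186). The others kept differed more. Bckdk rose by 0.66 ± 0.17 (adjusted p = 0.0321), against 0.95 with all fish. The added genes were gpt, got2a, got2b, gnmt, mat1a, gcshb, hpda, tdo2a and odc1. Gpt differed by -0.77 ± 0.19, got2b by -0.85 ± 0.18 and got2a by -0.89 ± 0.25 (adjusted p = 0.0247, 0.0101 and 0.0476). Mat1a differed by -0.45 ± 0.09 (adjusted p = 0.00949) and tdo2a by -0.66 ± 0.08 (adjusted p = 0.000501), 2 genes that with all fish had shown -0.19 and -0.27. At 25%, 7 members fell (agxta, bhmt, glula, hpda, mthfd2, odc1 and tdo2a) and cth1 rose, against 2.3% and 2.66% of all probe sets. At 0%, 6 fell and none rose, against 1.1% and 0.858%: bhmt, cth and glud1b were kept, agxta, gcshb and tdo2a were added, and got1, cbsb, gldc and bckdk no longer passed (adjusted p = 0.11, 0.0667, 0.109 and 0.0808). With fewer males their differences were -1.44 ± 0.42, -1.52 ± 0.38, -0.97 ± 0.28 and 0.93 ± 0.25, against -1.84, -1.60, -1.05 and 1.13 with all fish. Hepatocyte markers averaged 12.04 to 12.08 in those 3 males and 12.39 to 12.51 in the other 4, against 11.89 to 12.27 in females. The choice of these 3 fish was made with earlier results of these data known, and it leaves 2 males on each diet.

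**Figure D3:**
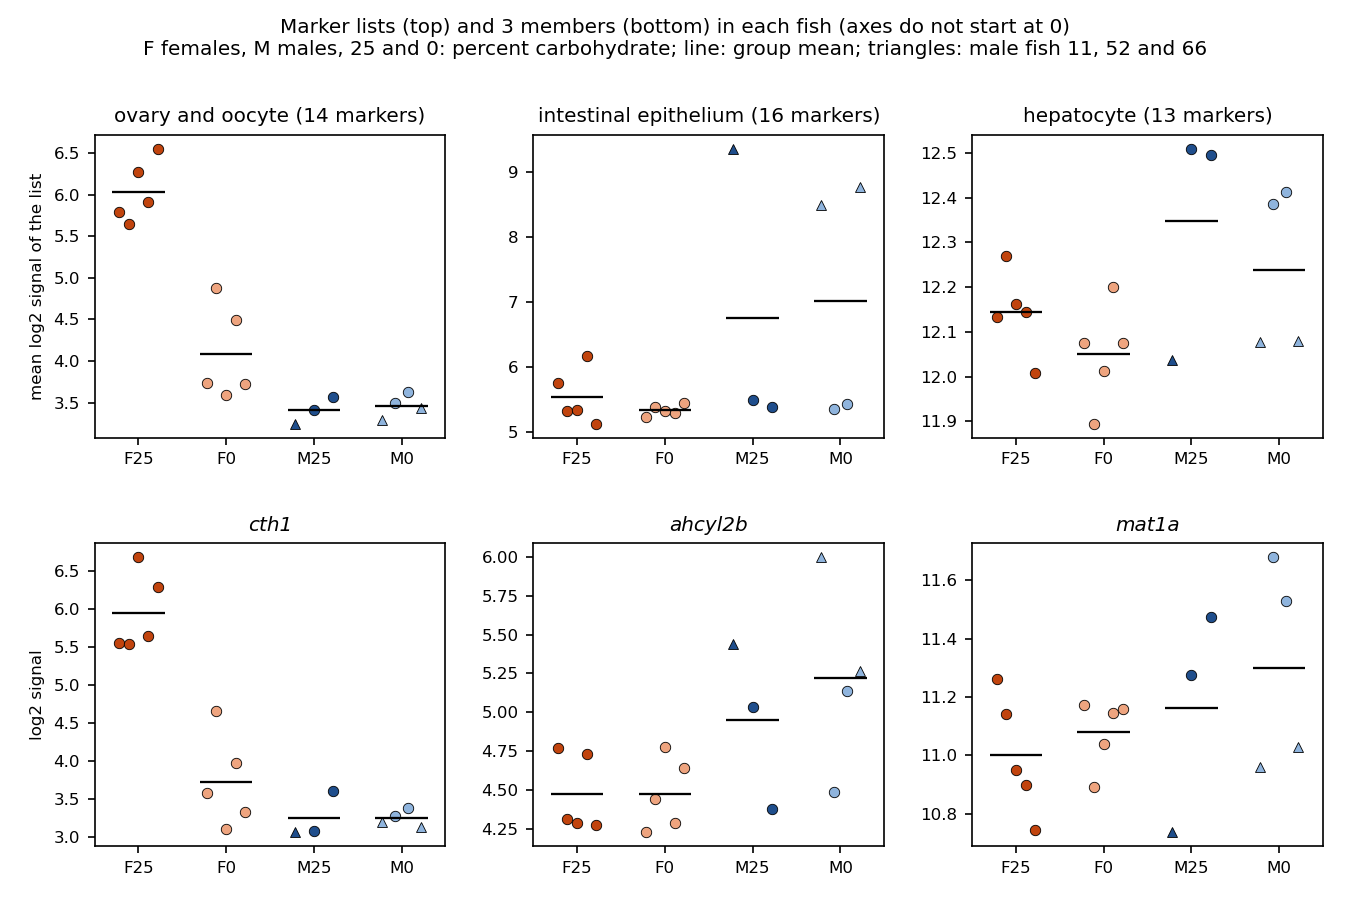
Mean log2 signal of the ovary, intestinal and hepatocyte marker lists (top) and log2 signal of cth1, ahcyl2b and mat1a (bottom) in each fish, by group, with the group mean as a line and male fish 11, 52 and 66 as triangles. Females on 25% stand highest for the ovary list and for cth1, and the 3 triangles stand highest for the intestinal list and for ahcyl2b and lowest among males for the hepatocyte list and mat1a.

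Seen by fish, the highest of the 17 values was in a male for 38 of 52 members, against 45.2% of all probe sets. The lowest was in a female for 30 of 52, against 49.1% of all probe sets. Male fish 54 held the highest for 10 of 52 members, against 7% of all probe sets, among them agxta, gcsha, gpt, mthfd2, odc1, shmt2 and tdo2a. Male fish 11 held it for 9 of 52, against 8.93%, among them got1, cbsb, cth, gldc, arg2 and tat. Male fish 26 held it for 8 of 52, against 6.44%, among them bhmt, mat1a, gnmt and got2a. The lowest value was in male fish 52 for 13 of 52 members, against 13.7% of all probe sets, among them tat, hgd, fah, mat1a, ahcy and tdo2a. It was in female fish 49 for 10 of 52, against 5.53%, among them cbsb, cth, gnmt, agxta and hpda. Of the males on 25%, fish 54 thus held the most highest values and fish 52 the most lowest values of all 17 fish. Each member has a highest and a lowest fish whatever its spread, so these counts do not measure the spread within groups.

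Between diets, gcsha and cth1 passed the test in females, and no member did in males. In females the 2 members (3.85%) rose on 25% and none fell, against 1.9% higher and 0.194% lower over all probe sets. Leaving out the 3 letter-only matches, cth1 among them, 1 of 49 rose (2.04%), near the 1.9% of all probe sets. Gcsha rose by 0.55 ± 0.12 (adjusted p = 0.0204). All 5 females on 25%, at 6.36 to 6.81, lay above all 5 on 0%, which reached 6.22 at most. Groups of females did not overlap for these 2 members upward and for cthrc1b and hpda downward, against 2.75% and 1.34% of all probe sets. Without male fish 11, 52 and 66 the same 2 members rose in females, against 2.01% of all probe sets higher and 0.342% lower. The gcsha call in females was lost in 6 of 17 fits that left out 1 fish. In males gcsha differed by 0.37 ± 0.15, and averaged over the sexes it rose by 0.46 ± 0.09 (adjusted p = 0.0199). That average call was lost without male fish 53 or 54.

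Cth1, the oocyte zinc finger gene, was 5.56, 5.54, 6.68, 5.64 and 6.29 in females on 25% and 3.57, 4.65, 3.09, 3.97 and 3.32 in females on 0%, against 3.06, 3.07 and 3.60 in males on 25% and 3.20, 3.26, 3.37 and 3.12 in males on 0%. It separated females on 25% from every other fish, with a diet difference of 2.22 ± 0.27 in females (adjusted p = 0.000209) and 0.01 ± 0.33 in males. Its interaction of 2.22 ± 0.43 passed (adjusted p = 0.0288), where 0.69% of all probe sets passed with a positive and 0.00645% with a negative interaction. Of 14 ovary markers 11 rose on 25% in females and 14 were higher in females on average. Female fish 8 and 25, the highest for cth1 on 0% at 4.65 and 3.97, also had the highest ovary means on 0%, at 4.88 and 4.49. Whether ovary RNA had a part in the cth1 signal was not tested. The interaction call was lost in 10 of 17 fits that left out 1 fish. Without male fish 11, 52 and 66 the interaction was of like size at 2.202 ± 0.56 but did not pass (adjusted p = 0.225), nor did that of any other member, against 0.0452% of all probe sets positive and 0.0516% negative.

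In males no member passed between diets, where 0.0968% of all probe sets were higher and 0.0194% lower on 25%. By limma 7 members (13.5%) had an unadjusted p under 0.05 with higher and 9 (17.3%) with lower signal on 25%, against 4.41% and 3.77% of all probe sets. The largest difference among the members was that of odc1. Odc1 was 3.60, 3.38, 4.02, 3.96 and 4.14 in females on 25% and 3.54, 3.62, 4.71, 3.11 and 3.20 in females on 0%, against 3.55, 6.12 and 6.36 in males on 25% and 3.23, 3.39, 3.09 and 3.45 in males on 0%. Fish 53 and 54 stood at 6.12 and 6.36, fish 52 at 3.55, and the 4 males on 0% below all 3. The difference was 2.05 ± 0.52, with a 95% interval of 0.94 to 3.16 (adjusted p = 0.212). Without male fish 11, 52 and 66 it was 3.002 ± 0.42 (adjusted p = 0.0117), the 1 member to pass, against 0.129% of all probe sets higher and 0.0516% lower. Odc1 also passed in males with array weights and when male fish 52 alone was left out. In females odc1 differed by 0.19 ± 0.43.

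Mthfd2 differed by 1.27 ± 0.24 between diets in males (adjusted p = 0.0624), all 3 males on 25% lying above all 4 on 0%. In females its difference was 0.14 ± 0.20, and averaged over the sexes it rose by 0.70 ± 0.15 (adjusted p = 0.0279), a call lost in 6 of 17 fits that left out 1 fish (female fish 10 or male fish 11, 26, 30, 53 or 54). Mthfd2 passed in males in 3 of the other settings (median centring, trend and robust, array weights) and when female fish 7, female fish 49, male fish 52 or male fish 66 was left out. Males did not overlap between diets for mthfd2, odc1, mat2aa and hibadhb, higher on 25%, and for cbsb and glud1b, lower, against 3.39% and 3.3% of all probe sets. Other male differences of at least 1 on the log2 scale were upward for mat2aa at 1.75 ± 0.62, glulb at 1.74 ± 0.79 and glula at 1.13 ± 0.91. They were downward for got1 at -1.20 ± 0.41, tat at -1.17 ± 0.39, cth at -1.10 ± 0.42 and cbsb at -1.07 ± 0.33. None of these passed, and their intervals were wide, as with tat at -1.999 to -0.34 and cth at -1.98 to -0.21.

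**Figure D4:**
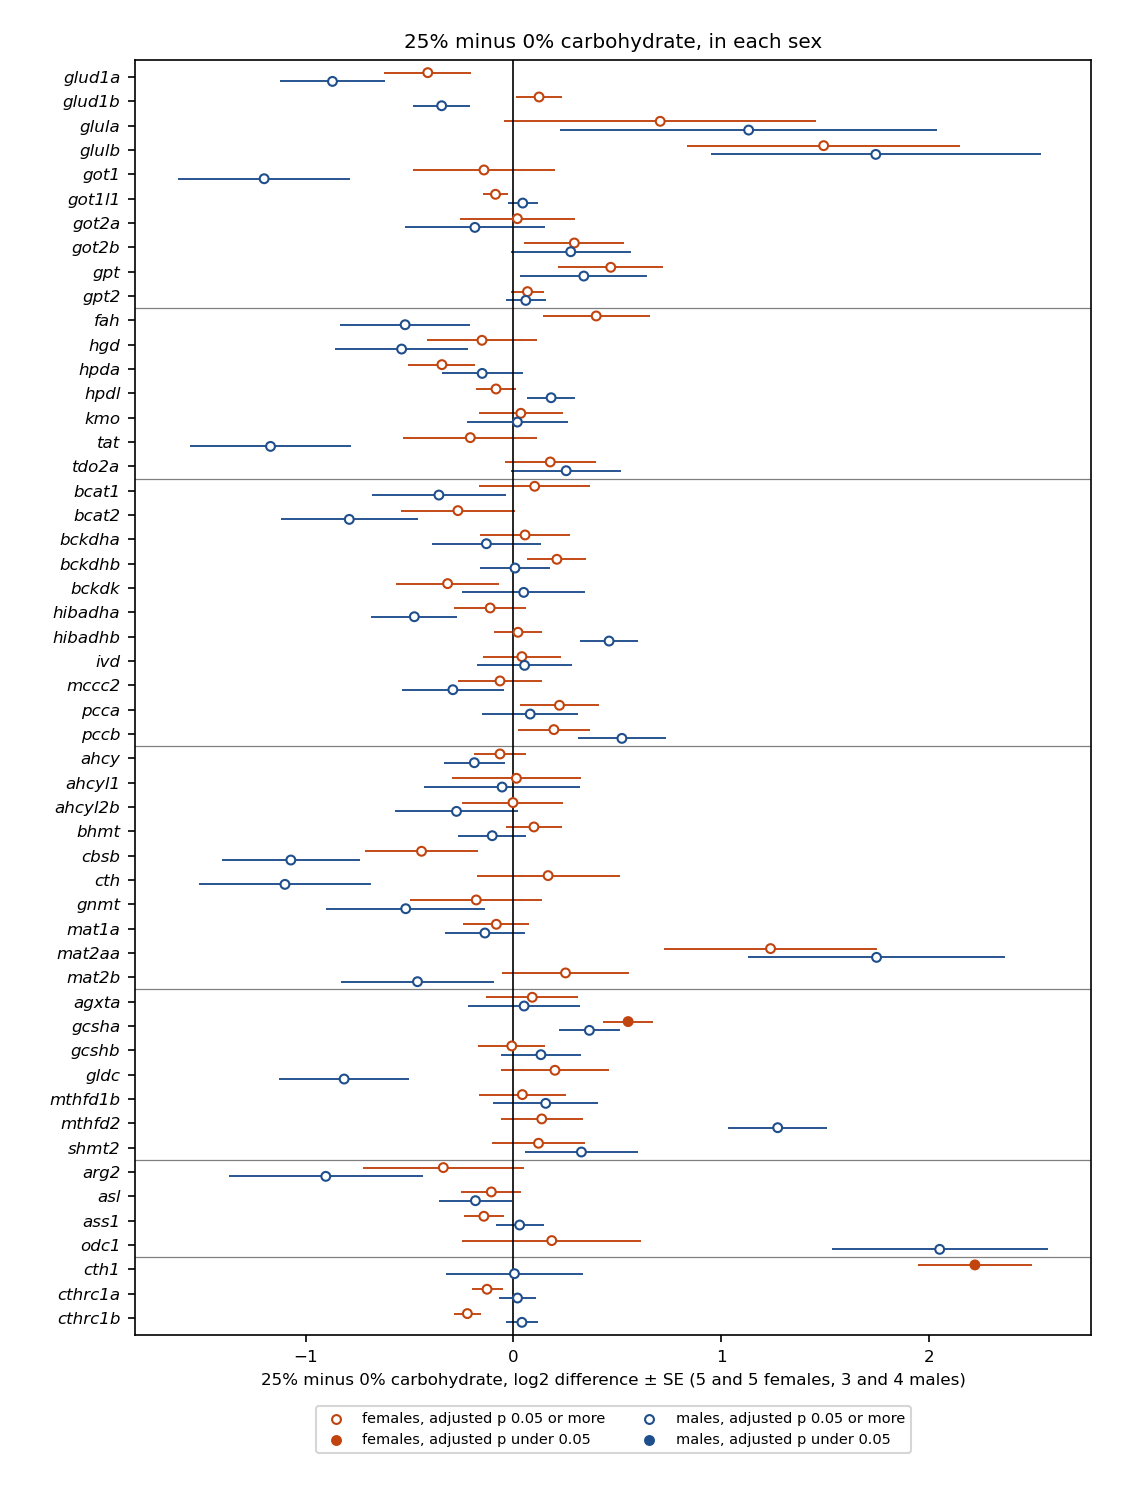
Log2 difference of 25% minus 0% carbohydrate with its standard error for each of the 52 members in females and in males, where filled points have an adjusted p under 0.05. Filled points are gcsha and cth1 in females, and the male points of odc1, glulb, mat2aa, mthfd2 and glula lie right of 0 as open points.

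Averaged over the sexes 3 members (5.77%) rose on 25% and none fell, cth1, gcsha and mthfd2, against 1.46% higher and 0.452% lower over all probe sets. Leaving out the 3 letter-only matches, cth1 among them, 2 of 49 rose (4.08%). The medians of the 52 diet differences were 0.04 in females, 0.01 in males and -0.04 on average. Mat2aa was higher on 25% by 1.49 ± 0.40 (adjusted p = 0.0752) and did not pass. It passed among the probe sets of above-median mean signal and without female fish 8, where it also passed in females. Its values were 7.19, 7.14, 8.56, 7.99 and 7.65 in females on 25% and 5.54, 8.49, 6.98, 5.81 and 5.52 in females on 0%, against 7.15, 8.22 and 6.64 in males on 25% and 5.55, 5.20, 5.32 and 6.28 in males on 0%. Female fish 8 on 0%, at 8.49, was exceeded only by female fish 24 on 25%, and the other 8 fish on 0% lay at or below 6.98. Glulb differed by 1.62 ± 0.51 (adjusted p = 0.125), and passed with array weights and without male fish 52. Cbsb differed by -0.76 ± 0.21 and glud1a by -0.64 ± 0.16, without passing (adjusted p = 0.0893 and 0.061). Cbsb passed as lower with averaged probe sets and without female fish 8. Glud1a did so under quantile normalization, among the probe sets of above-median mean signal, and without female fish 25, male fish 53 or male fish 66. Without male fish 54 no member passed on average, and without male fish 52 or female fish 8 there were 5. Without male fish 11, 52 and 66 gcsha, mthfd2 and odc1 rose and cth1, at 1.12 ± 0.28 against 1.11 with all fish, did not pass (adjusted p = 0.084), against 0.684% higher and 0.258% lower over all probe sets.

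**Figure D5:**
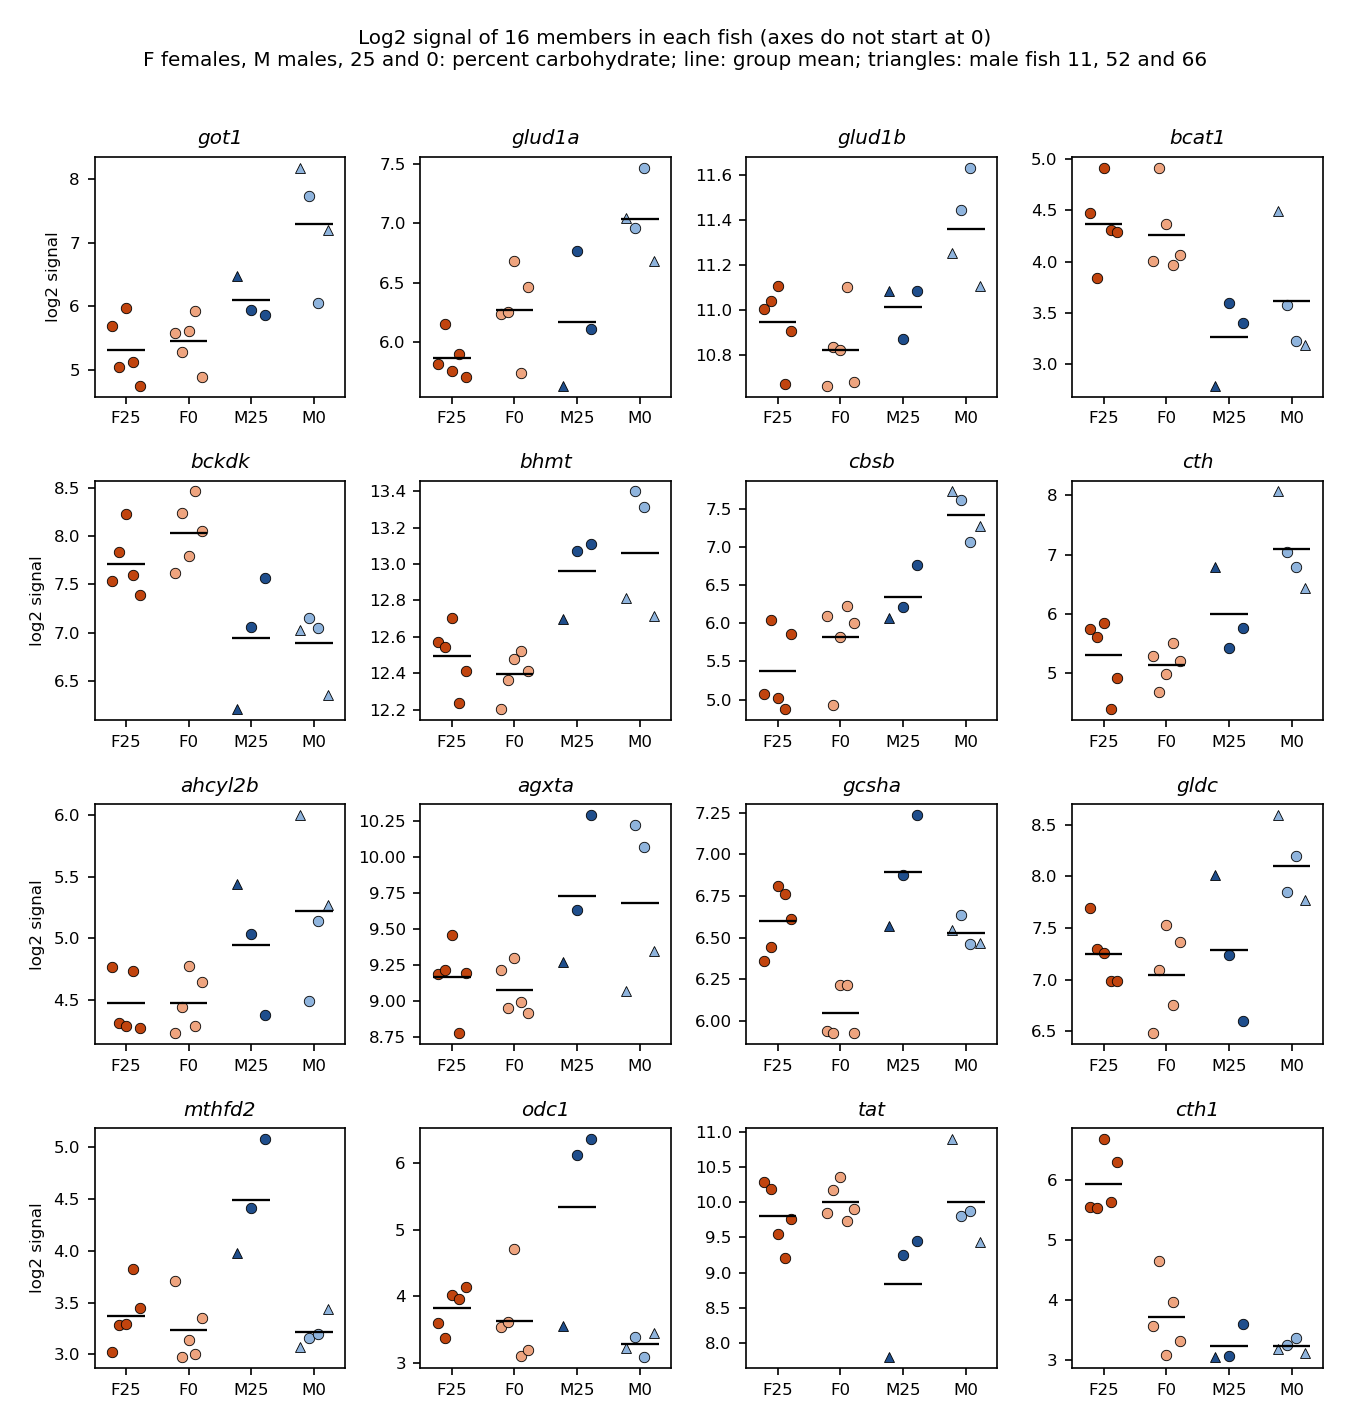
Log2 signal of 16 members in each fish, by group, with the group mean as a line and male fish 11, 52 and 66 as triangles. Got1, cbsb and cth are highest in males on 0%, mthfd2 in males on 25%, bckdk in females, and cth1 in females on 25%, while odc1 is high in male fish 53 and 54.

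Further genes of the same pathways were counted from a wider list of 47 measured genes. For sex averaged over diets and with all 17 fish, 4 fell in females and 3 rose (8.51% and 6.38%). These shares were near the 5.57% lower and 8.02% higher of all probe sets. Cdo1, the cysteine dioxygenase that commits cysteine to sulphate and taurine, differed by -0.83 ± 0.18 (adjusted p = 0.00636). Its values were 9.17, 9.44, 9.50, 9.50 and 8.85 in females on 25% and 9.44, 9.67, 9.53, 9.72 and 10.03 in females on 0%, against 11.05, 9.56 and 9.84 in males on 25% and 10.49, 10.47, 10.23 and 10.70 in males on 0%. Male fish 53 and 54 lay within the female range, and the 3 highest values were those of fish 52, 66 and 11, the males with high intestinal markers. Without those 3 males the cdo1 difference was -0.54 ± 0.13 (adjusted p = 0.0253). Aldh4a1, which oxidises the proline breakdown product to glutamate, differed by -0.52 ± 0.11 (adjusted p = 0.00403). Also lower were mpst, a sulphurtransferase acting on a cysteine breakdown product, at -0.66 ± 0.17 (adjusted p = 0.0191), and azin1b, an antizyme inhibitor of the polyamine route, at -0.72 ± 0.18 (adjusted p = 0.0152). Tyms, which spends folate carbon on thymidylate, rose by 0.56 ± 0.11 (adjusted p = 0.0029) with 3 of 4 males on 0% below the array's median, and mmachc, which processes vitamin B12, rose by 0.48 ± 0.09 (adjusted p = 0.00193). Phgdh, the first enzyme of serine synthesis, was also called but lay below the array's median in all 17 fish, and it did not pass without male fish 11, 52 and 66 (adjusted p = 0.211). Mpst was -1.003 ± 0.13 without those 3 males. In that fit aldh4a1, azin1b, cdo1 and mpst stayed lower in females, and aldh7a1, dld, ftcd, gamt and gcat also fell. Mmachc and tyms stayed higher. Over all probe sets 5.24% were lower and 4.13% higher in that fit. Gcat differed by -1.08 ± 0.15 (adjusted p = 0.00118), against -0.64 ± 0.21 with all fish (adjusted p = 0.0587). With all fish, at 25% tyms rose and aldh4a1 fell, and at 0% mmachc rose. None of the 47 passed for diet in females, in males or on average, or for the interaction.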

How the data were processed

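The authors' deposited table gives log2 signals for 15617 probe sets on 17 arrays, already normalized. Log base 2 was inferred, since values run from 1.82 to 14.38. MAS5, RMA, GCRMA and PLIER are named, per the submitters' processing notes, and which of them gave these values is not stated. The number of arrays limits the precision. Left out were 115 control probe sets, and the other 15502 entered a limma 3.58.1 fit under R 4.3.3 (lmFit and eBayes, 4 group means, 7 contrasts, Benjamini-Hochberg), after a test on simulated data. Symbols came from the platform annotation. All 52 members matched RefSeq by Entrez ID, and probe sequences were not examined, so signal shared between gene copies was not tested. Fish values are given for the members past the threshold in any contrast and for 1 further member of a role group with none. The fish values of glula and mat2aa and the values of mpst, azin1b and gcat were chosen after they were seen. Members, lists and alternatives were chosen with earlier results of these data known. Alternatives were quantile normalization, median centring, only the probe sets of above-median mean signal, trend and robust eBayes, array weights, averaged probe sets, only the groups compared, leaving out each fish, and leaving out male fish 11, 52 and 66. Marker lists not described in the report are given in the closing section.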

Additional observations from a re-analysis of the deposited data

Results flagged for a closer look

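In groups of 4 or 5 fish, 4 of 156 member groups held a fish whose gap to its nearest neighbour took up an unusually large part of the group's range, and chance alone gives about 1 in 20 groups. Bckdk stood at 6.35 in male fish 66 on 0%, and the other 3 males on 0% lay between 7.03 and 7.16. Hpda stood at 11.41 in female fish 49 on 25%, below 11.96 to 12.12 in the other 4 of its group, and bcat2 at 4.17 in the same fish, below 4.62 to 4.80. Fah stood at 9.17 in female fish 25 on 0%, above 8.004 to 8.27 in the other 4. The group of 3 males on 25% was too small for this comparison. Cth1 differed between the sexes in its response to diet, the female minus the male difference being 2.22 (adjusted p = 0.0288).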

How the results depend on the processing

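Of 28 calls of a member in a contrast, 10 held under every alternative run, 18 were lost under at least 1, and 0 changed direction. No paired analysis was possible because no fish number occurs in 2 groups. Members called for sex on average numbered 13, and were 8 under quantile normalization, 20 with array weights, 21 without male fish 11, 52 and 66, and 8 to 17 leaving out 1 fish (8 without female fish 8). At 0% the 7 calls were 4 with only the groups compared and 3 to 9 leaving out 1 fish. Those 4 were bckdk, cbsb, cth and gcsha, so bhmt, got1, glud1b and gldc were lost and gcsha was added. At 25% the 2 calls were 4 with array weights, 8 without the 3 males, 1 with only the groups compared and 2 to 4 leaving out 1 fish. For diet in females the 2 calls were 1 with trend and robust settings and 1 to 2 leaving out 1 fish. For diet in males the count of 0 was 1 with median centring, 1 with trend and robust settings, 2 with array weights, 1 without the 3 males and 0 to 2 leaving out 1 fish. The 3 calls on average were 5 with array weights and 0 to 5 leaving out 1 fish. The interaction's 1 call was 0 with array weights, 0 without the 3 males and 0 to 1 leaving out 1 fish. Median centring moved the split over all probe sets to 1064 higher and 1071 lower for average sex, against 1243 and 863, quantile normalization to 1199 and 709, and keeping only probe sets of above-median mean signal, 46 members among them, to 845 and 797. The last pair counts only the brighter of the 15502 probe sets, split at their median mean signal, so both its shares were above those over all probe sets. In that fit agxta, ahcyl2b, bhmt, cbsb, cth, gcsha, glud1a, glud1b, got1, got2a and got2b were lower in females. Bcat1, bckdk and cth1 were higher. The cause of these shifts was not tested.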

Other observations

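Marker lists not described above gave few calls. For sex averaged over diets the leukocyte list had 0 of 8 past the threshold (median -0.29), the testis list 0 of 4 (median 0.02), the exocrine pancreas list 0 of 13 (median -0.17), and the red cell list 1 of 8 higher and 1 lower (median -0.34). The intestinal list had 1 of 16 lower in females (median -1.40). Split by diet, the pancreas list had a median sex difference of -1.60 at 0% and 1.30 at 25%, with 0 of 13 past at either. For diet in females the pancreas list had 0 of 13 past with a median of 1.38, and for diet in males 0 of 13 with a median of -1.47.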
